A study of Mus musculus with 12 samples.

Results

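The genes described here are 36 genes of ribosome biogenesis, the work of the nucleolus that turns ribosomal RNA and ribosomal proteins into ribosomal subunits. They were chosen by gene symbol from a list of nucleolar factors, not by their level in any library, but with earlier results of these data known. All 36 were found among the 26264 gene symbols of the count tables, and all 36 passed the filter on low counts that left 17002 tested genes. The libraries came from glomerulus-enriched kidney RNA of 8-week-old male mice of 2 BALB/c substrains, BALB/cAjcl (Ajcl, written AJcl by the study) and BALB/cByJcl (ByJcl), with no engineered allele in either. Mice were untreated (baseline) or were killed on Day 5 after 1 dose of the anthracycline adriamycin (ADR, doxorubicin), 10 mg/kg given into a vein, a model of podocyte injury. Each of the 4 groups held 3 libraries of poly(A)-selected RNA. No library of mice injected with saline was analysed here, so the injection, the anaesthesia and the elapsed days cannot be told apart from ADR.

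Ribosome production starts with RNA polymerase I, which transcribes one long precursor from the ribosomal DNA repeats. Small nucleolar ribonucleoproteins (snoRNPs) modify and fold the precursor, the small subunit processome cuts out the small subunit RNA, and a chain of pre-ribosomal factors matures the large subunit. The PeBoW complex of Pes1, Bop1 and Wdr12 belongs to the large subunit branch, while Nob1, Pno1, Ltv1, Tsr1 and Rrp12 act late on the small subunit. The transcription factor MYC is known to raise many of these genes, and free ribosomal proteins of a disturbed nucleolus are known to bind MDM2 and so stabilise p53. Doxorubicin is known to intercalate into DNA and to disturb nucleolar transcription. Poly(A)-selected libraries measure the messenger RNA of these factors and do not measure ribosomal RNA itself.

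The promoters of these genes are shown because the gene for MYC was among those called after ADR, and MYC binds the E-box CACGTG. RefSeq promoter sequence on GRCm38.p6, from 250 bases before to 50 bases after a gene's start, was found for 31 of the 36 genes. The count files use GRCm39, so the positions in this paragraph belong to GRCm38.p6 alone. The E-box CACGTG, which reads the same on both strands, was present in 8 of the 31, or 25.8%, against 8.09% of all 27025 genes with a promoter and 10.7% of the 13269 tested genes with one. The ETS core GGAAGT, searched on both strands and able to share at most 1 base with an E-box, was present in 15 of the 31, or 48.4%, against 26.5% of all genes with a promoter and 30.3% of tested genes. Among 84 other ribosome biogenesis genes with a promoter the shares were 17.9% for the E-box and 63.1% for the ETS core. These matches describe letters in a window and do not show binding. The windows below carry every E-box of the 8 genes, 5′ to 3′ on the strand of the gene, with motif letters in capitals. Rrn3 held 2 E-boxes. The E-box of Pno1 lay 37 bases after the start, in the window at chr11:17211540-17211564.
Pno1: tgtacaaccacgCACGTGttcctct
Rrn3: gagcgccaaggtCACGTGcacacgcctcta
Rrn3: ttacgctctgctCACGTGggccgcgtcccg
Utp4: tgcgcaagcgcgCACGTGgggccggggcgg
Utp20: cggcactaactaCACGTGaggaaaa
Tsr1: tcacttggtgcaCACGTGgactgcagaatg
Ltv1: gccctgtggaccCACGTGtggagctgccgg
Pes1: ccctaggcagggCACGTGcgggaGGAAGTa
Nop2: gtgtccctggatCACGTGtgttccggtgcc
Pno1 was also the gene with the smallest adjusted p of the 36 after ADR in ByJcl. It was called there together with Nop58, Gnl3 and Ddx21, and the 250 bases before the start of each are shown to compare genes that rose in the same libraries. They lie at chr1:59684756-59685005 on the plus strand for Nop58, and on the minus strand at chr11:17211590-17211839 for Pno1, chr14:31019132-31019381 for Gnl3 and chr10:62602299-62602548 for Ddx21. None of these stretches held an E-box, while Nop58 held 1 ETS core and Ddx21 held 2.
Nop58: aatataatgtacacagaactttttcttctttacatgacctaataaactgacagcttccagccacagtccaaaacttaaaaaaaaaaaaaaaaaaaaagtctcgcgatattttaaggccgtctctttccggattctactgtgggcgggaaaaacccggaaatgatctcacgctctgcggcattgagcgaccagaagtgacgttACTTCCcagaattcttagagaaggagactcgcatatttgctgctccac
Pno1: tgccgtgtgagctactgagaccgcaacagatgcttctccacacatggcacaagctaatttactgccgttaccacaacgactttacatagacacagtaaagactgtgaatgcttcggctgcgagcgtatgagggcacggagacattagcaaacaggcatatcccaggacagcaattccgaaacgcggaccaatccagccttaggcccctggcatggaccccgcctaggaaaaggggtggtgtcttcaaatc
Gnl3: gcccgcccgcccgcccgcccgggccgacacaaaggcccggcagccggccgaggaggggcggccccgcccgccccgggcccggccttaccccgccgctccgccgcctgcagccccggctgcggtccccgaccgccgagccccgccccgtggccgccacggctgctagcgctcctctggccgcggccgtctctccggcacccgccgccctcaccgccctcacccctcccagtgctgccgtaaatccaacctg
Ddx21: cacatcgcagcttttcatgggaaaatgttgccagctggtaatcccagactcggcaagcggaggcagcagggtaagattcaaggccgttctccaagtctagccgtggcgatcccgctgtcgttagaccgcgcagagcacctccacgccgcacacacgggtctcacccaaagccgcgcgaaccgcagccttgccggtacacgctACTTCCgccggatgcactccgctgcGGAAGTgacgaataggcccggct

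Total counts ranged from 42198416 to 54687045 per library (median 46915194.5). The 36 genes together took between 0.126% and 0.18% of the counts of a library. The smallest count of any of them in any library was 276, so none was near the floor of counts. The study excluded Ajcl Day 5 replicate 1 for reduced glomerular purity, and the fold changes below leave it out except where all 12 libraries or its addition are named. Here its ratio of summed podocyte markers to summed tubule markers was 3.38, the lowest of the 12 libraries, against 5.38 to 61.9 in the others. Levels are CPM, counts set to a common library total after TMM scaling, which takes library sizes from the bulk of genes. Podocyte markers were present in every library, with the lowest of 12 markers at 50.6 CPM or more. Fold changes are log2 values (log2FC) from edgeR's quasi-likelihood fit over 11 libraries. A gene was called at a Benjamini-Hochberg adjusted p below 0.05 over the 17002 genes. Fewer cells of a type and less RNA per cell cannot be told apart in such bulk samples. The labels used here name no batch. Baseline and Day 5 libraries were tabulated apart, and any effect of that cannot be told apart from ADR.

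The genes were compared with one another at baseline as CPM per kilobase of coding sequence, averaged over the 6 baseline libraries. Ncl (nucleolin, an abundant nucleolar RNA-binding protein) was highest at 162 CPM per kilobase, followed by Npm1 (nucleophosmin, a nucleolar chaperone) at 151. Pes1 of PeBoW followed at 40.9, the helicase gene Ddx21 at 34.6, Nop16 at 34.4 and Nip7 at 33.8. The lowest were Utp20 at 4.42, Polr1b at 3.43 and Rrp12 at 2.46. Ncl and Npm1 thus stood apart from the rest by this measure. The scale ignores untranslated regions, so the order of neighbours with near values is not resolved. Npm1 has processed copies elsewhere in the mouse genome, and the handling of reads that match several places is not given in the sources used here.

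In ByJcl glomeruli, Day 5 against baseline, 4 of the 36 genes rose and none passed the test in the other direction (edgeR). They were Pno1, Nop58, Gnl3 and Ddx21, by 1.60-, 1.64-, 1.43- and 1.31-fold. The share called, 11.1% of the 36, was near the 10.6% of all tested genes called in either direction, of which 5.75% rose and 4.83% fell. In all, 29 of the 36 log2FC were above 0 and the median was 0.19, against 0.01 over all tested genes. An unadjusted p below 0.05 was reached by 15 of the 36 (41.7%), of which only Bms1 had a log2FC below 0, and by 26.8% of all tested genes. The plot of fold changes by role shows the estimates of each substrain side by side.

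**Figure D1:**
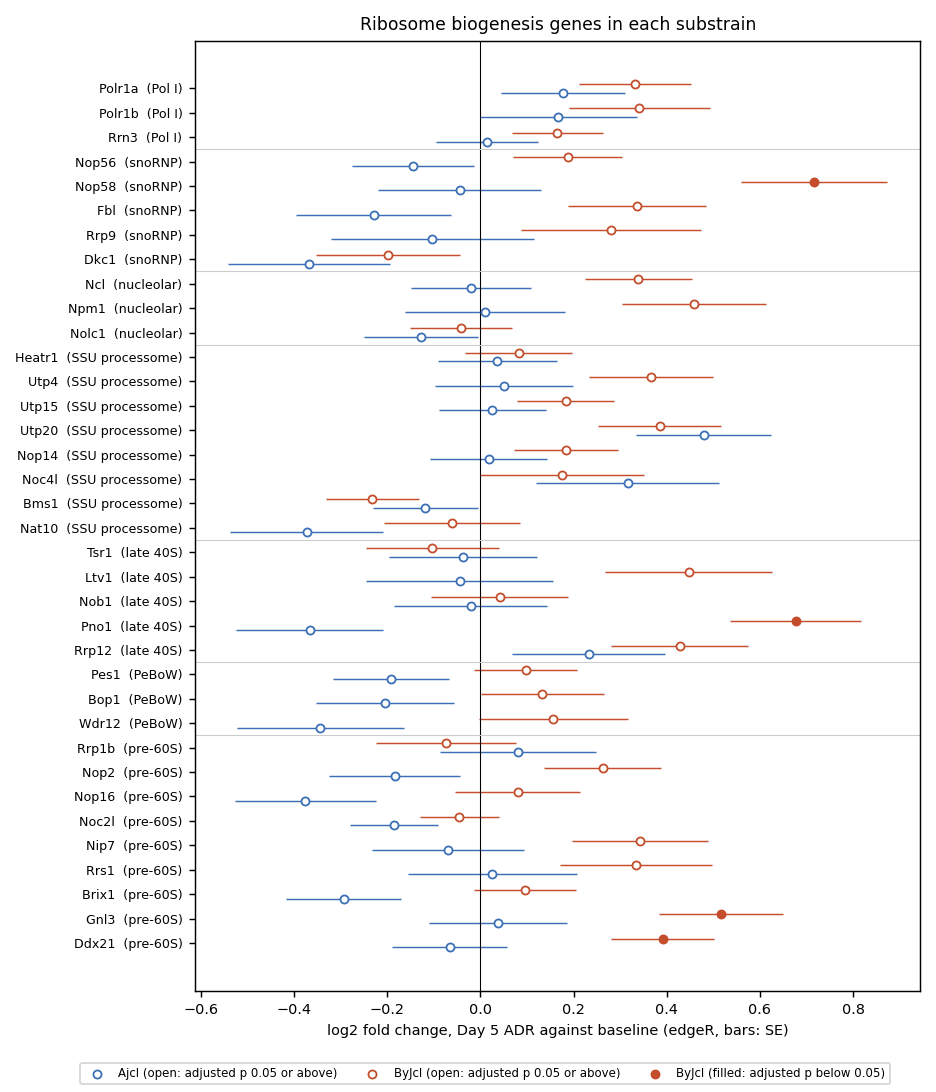
Log2 fold change of the 36 genes, Day 5 ADR against baseline, in Ajcl (blue) and ByJcl (red), from edgeR's fit over 11 libraries, with bars of 1 SE and genes ordered by role. Filled points are the 4 calls, Nop58, Pno1, Gnl3 and Ddx21, all in ByJcl, and 29 of the 36 red points lie to the right of 0 against 14 of the blue ones.

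Pno1, on chromosome 11 (GRCm39 17153198 to 17161593), encodes the partner of the endonuclease NOB1 in the last steps of the small subunit. In ByJcl it was at 17.2, 15.6 and 19.97 CPM at baseline and at 27.3, 32.8 and 25.1 CPM on Day 5. The groups did not overlap, and the log2FC was 0.68 (SE 0.14, edgeR adjusted p = 0.0135). In Ajcl it was at 23.4, 21.6 and 21.4 CPM at baseline and at 15.6 and 18.4 CPM in the 2 Day 5 libraries of the fit. Those libraries lay below every baseline library, with a log2FC of -0.37 (SE 0.16, edgeR adjusted p = 0.480). In Ajcl Day 5 replicate 1, left out of the fit, Pno1 stood at 31.8 CPM, above all other Ajcl libraries, and with it the Ajcl groups overlapped.

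Nop58, on chromosome 1 (GRCm39 59724106 to 59758203), encodes a scaffold protein of the box C/D snoRNPs that guide ribose methylation. In ByJcl it was at 31.1, 22.7 and 28.3 CPM at baseline and at 50.6, 47.8 and 37.8 CPM on Day 5. All Day 5 libraries lay above all baseline libraries (log2FC 0.72, SE 0.16, edgeR adjusted p = 0.0171). Ajcl was at 39.5, 31.8 and 30.5 CPM at baseline and at 30.6 and 34.6 CPM on Day 5, with 32.8 CPM in the library left out. The Ajcl groups overlapped with or without that library, and the log2FC was -0.04 (SE 0.18).

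Gnl3, on chromosome 14 (GRCm39 30734389 to 30741364), encodes nucleostemin, a GTPase of the nucleolus. In ByJcl it was at 21.7, 18.5 and 20.1 CPM at baseline and at 28.5, 33.5 and 25.1 CPM on Day 5, without overlap (log2FC 0.52, SE 0.13, edgeR adjusted p = 0.0329). Ajcl baseline libraries were at 25.1, 19.5 and 24.3 CPM and Ajcl Day 5 libraries at 23.0 and 23.7 CPM, inside the baseline range, with 25.997 CPM in the library left out, above it. The Ajcl log2FC was 0.04 (SE 0.15).

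Ddx21, on chromosome 10 (GRCm39 62415574 to 62438099), encodes a nucleolar RNA helicase. In ByJcl it was at 86.1, 76.3 and 91.8 CPM at baseline and at 116, 117 and 103 CPM on Day 5. The groups did not overlap (log2FC 0.39, SE 0.11, edgeR adjusted p = 0.0467). The call was lost in 11 of 21 other settings, over which the log2FC ran from 0.32 to 0.46. In Ajcl it was at 85.2, 91.0 and 99.5 CPM at baseline and at 78.1 and 95.7 CPM on Day 5, which overlapped (log2FC -0.07, SE 0.12).

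**Figure D2:**
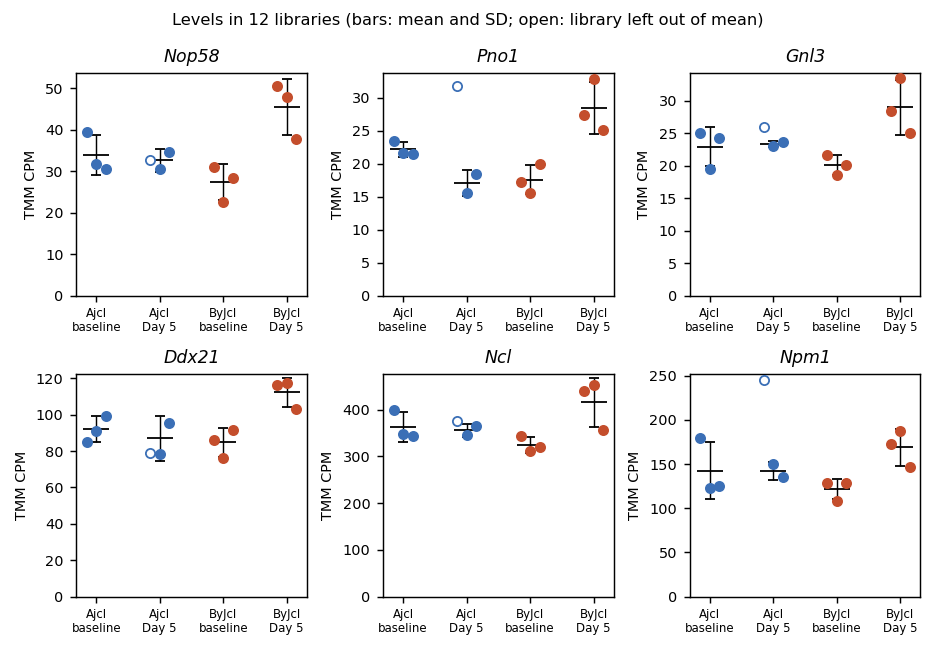
TMM-scaled CPM of the 4 called genes and of Ncl and Npm1 in the 12 libraries, 3 per group, with black bars for mean and SD and an open point for Ajcl Day 5 replicate 1, which is left out of the mean. The ByJcl Day 5 points of Nop58, Pno1, Gnl3 and Ddx21 lie above all ByJcl baseline points, and the open point lies above the other Ajcl points for Pno1 (31.8 CPM), Gnl3 (25.997 CPM) and Npm1 (245 CPM).

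The 4 calls rest on few libraries, and over the 21 other settings Gnl3 was not called in 8, Pno1 in 6 and Nop58 in 2. Their log2FC stayed above 0 in all 21, from 0.40 to 0.62 for Gnl3, 0.56 to 0.78 for Pno1 and 0.60 to 0.85 for Nop58. Without ByJcl baseline replicate 2, or without ByJcl Day 5 replicate 2, none of the 36 was called, against 4.32% and 4.05% of all genes tested in those fits. The count was 1 without ByJcl baseline replicate 1 (4.97% of all), 2 without ByJcl baseline replicate 3 (6.29%) and 2 without ByJcl Day 5 replicate 1 (9.34%). It was 6 without ByJcl Day 5 replicate 3 (9.54%) and 7 without Ajcl baseline replicate 1 (12.1%). With all 12 libraries 2 were called, against 7.21% of all. DESeq2 called 7, all with a log2FC above 0, and 15.8% of all genes to which it gave an adjusted p.

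By role, the 3 polymerase I genes had log2FC between 0.17 and 0.34 in ByJcl, and none passed the test. These are Polr1a and Polr1b, the large subunits of the enzyme, and Rrn3, the factor that brings it to the ribosomal DNA promoter. In each, all 3 Day 5 libraries lay above all 3 baseline libraries. Polr1a was at 35.996 ± 2.06 CPM at baseline and 45.8 ± 4.38 CPM on Day 5 (SD, n = 3 each), with an edgeR adjusted p of 0.102. Without overlap, 17 of the 36 genes (47.2%) were higher on Day 5 in ByJcl, against 18% of all tested genes, and 2 were lower, against 15.1%.

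Among the snoRNP genes, Fbl, the ribose methyltransferase fibrillarin, had a log2FC of 0.34 in ByJcl (SE 0.15, edgeR adjusted p = 0.173), Nop56, the partner of NOP58, of 0.19 and Rrp9 of 0.28. Dkc1, the pseudouridine synthase of the box H/ACA class, had a log2FC of -0.20 (SE 0.15). The nucleolar proteins Ncl and Npm1 had log2FC of 0.34 (SE 0.12, edgeR adjusted p = 0.0850) and 0.46 (SE 0.15, edgeR adjusted p = 0.0818). For both, ByJcl Day 5 libraries lay above all baseline libraries, Ncl at 439, 452 and 356 CPM against 344, 312 and 320 CPM. Nolc1, a chaperone of snoRNPs, had a log2FC of -0.04 and overlapping groups.

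None of the 8 small subunit processome genes passed the test in ByJcl, and their log2FC ran from -0.23 to 0.38. The highest values were those of Utp20 (0.38, edgeR adjusted p = 0.0865) and Utp4 (0.37, edgeR adjusted p = 0.103). Bms1, the GTPase of the processome, had the lowest, and its Day 5 libraries at 66.1, 62.6 and 76.5 CPM lay below its baseline libraries at 84.2, 77.8 and 76.8 CPM (log2FC -0.23, SE 0.10, edgeR adjusted p = 0.164). The other gene without overlap on the low side was Noc2l, an export factor of the large subunit, with a log2FC of -0.05. Of the late small subunit genes, Ltv1 and Rrp12 had log2FC of 0.45 and 0.43, with Day 5 libraries above all baseline libraries and edgeR adjusted p of 0.137 and 0.0886. Nob1, the endonuclease that PNO1 partners, had a log2FC of 0.04, and Tsr1 had one of -0.10. The 3 PeBoW genes had log2FC of 0.10 to 0.16, and all 3 overlapped between the groups. The remaining large subunit genes ran from -0.07 for Rrp1b to 0.34 for Nip7, apart from the called Gnl3 and Ddx21.

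In Ajcl glomeruli, Day 5 against baseline, edgeR called none of the 36 genes, while 5 had an unadjusted p below 0.05, or 13.9% against 9.8% of all tested genes. edgeR called 0.312% of all tested genes in this comparison, which has 2 Day 5 libraries, and DESeq2 called none of the 36 against 1.77%. The median log2FC was -0.04, against -0.01 over all tested genes, and 14 of the 36 were above 0. It was 0.00414 with 18 above 0 without Ajcl Day 5 replicate 2, and -0.13 with 9 above 0 without replicate 3, so its sign rested on single libraries. The SE of the 36 were between 0.09 and 0.22, against 0.08 to 0.19 in ByJcl. Without overlap, 3 genes were higher, against 13.4% of tested genes, and 7 were lower, against 12.5%.

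The 3 genes with the smallest p in Ajcl were Utp20, Nop16 and Brix1. Utp20, a large scaffold protein of the processome on chromosome 10, was at 29.4, 38.8 and 44.2 CPM at baseline and at 51.7 and 51.9 CPM on Day 5. Both Day 5 libraries lay above all baseline libraries (log2FC 0.48, SE 0.15, edgeR adjusted p = 0.273), and the log2FC was 0.32 without Ajcl baseline replicate 1. In ByJcl it was at 36.9, 35.8 and 36.7 CPM and then at 52.0, 49.2 and 43.0 CPM, so the Day 5 libraries of the fit lay above the baseline libraries in both substrains. Nop16, a large subunit factor on chromosome 13, was at 23.1, 16.4 and 20.5 CPM at baseline and at 16.2 and 14.3 CPM on Day 5 (log2FC -0.38, SE 0.15, edgeR adjusted p = 0.428). Brix1, which binds large subunit precursors, is on chromosome 15. It was at 32.3, 29.0 and 28.8 CPM at baseline and at 24.3 and 24.3 CPM on Day 5 (log2FC -0.29, SE 0.12, edgeR adjusted p = 0.461). With all 12 libraries the log2FC of Utp20, Nop16 and Brix1 were 0.33, -0.03 and -0.17. With Ajcl Day 5 replicate 1 in place of replicate 2 or 3, the log2FC of Nop16 was 0.09 or 0.16, that is, of the other sign. That of Utp20 was then 0.24 or 0.25 and that of Brix1 -0.12 or -0.11, and in the replicate itself Utp20 was at 37.5 and Brix1 at 31.4 CPM, both inside their Ajcl baseline ranges.

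The interaction asks whether the change after ADR differed between ByJcl and Ajcl. edgeR called none of the 36 genes and 0% of all tested genes, with 8 of the 36 (22.2%) and 1363 of all genes (8.02%) at an unadjusted p below 0.05. DESeq2 called 1 of the 36, Pno1, against 0.143% of all. The median interaction log2FC of the 36 was 0.31, against 0.00 over all tested genes, and 31 were above 0, which means a value further up in ByJcl. The largest values were those of Pno1 (1.04, SE 0.21, edgeR adjusted p = 0.620), Nop58 (0.76, SE 0.24, edgeR adjusted p = 0.620) and Fbl (0.57, SE 0.22, edgeR adjusted p = 0.620). Ddx21 had 0.46 (SE 0.17, edgeR adjusted p = 0.620). In the same comparison 19 of 20 proliferation genes were above 0 (median 0.81) and 11 of 12 podocyte markers below 0 (median -0.83), with no call, and their part in the values of the 36 was not tested. The value of Pno1 was 0.70 with all 12 libraries, and with Ajcl Day 5 replicate 1 in place of replicate 2 or 3 it was 0.48 or 0.59. The median was 0.28 with all 12 libraries and ran from 0.21 to 0.41 when single libraries were left out, lowest without ByJcl Day 5 replicate 1. The calls in ByJcl alone therefore do not show a difference between the substrains in the response. The plot of the 5 comparisons gives the spread of the 36 genes in each.

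**Figure D3:**
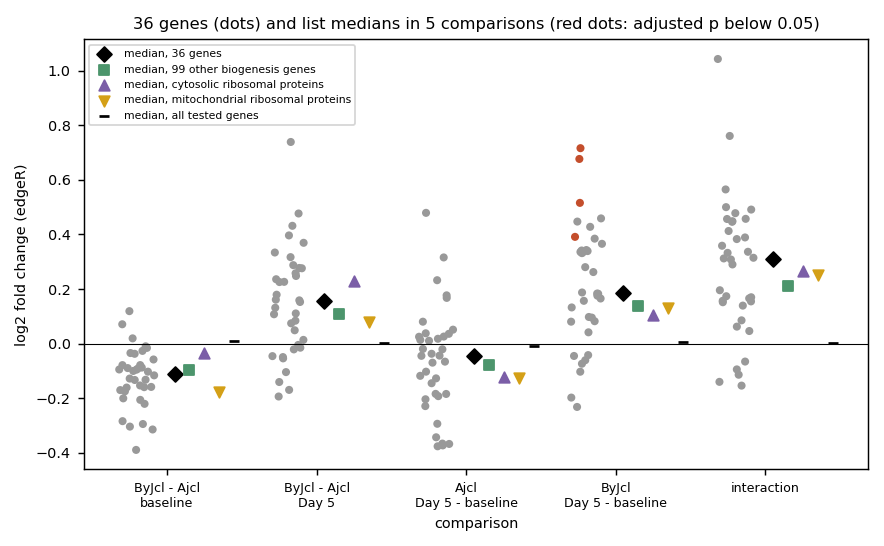
Log2 fold change of the 36 genes (dots, red where the edgeR adjusted p is below 0.05) in the 5 comparisons, with medians of the 36 genes, of 99 other biogenesis genes, of cytosolic and mitochondrial ribosomal protein genes and of all tested genes. The median of the 36 is -0.11 at baseline between substrains and 0.31 in the interaction, and the median of all tested genes stays between -0.01 and 0.01.

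On Day 5, ByJcl against Ajcl, edgeR called none of the 36 genes against 0.165% of all tested genes, with 4 (11.1%) against 14% at an unadjusted p below 0.05. DESeq2 called 1 of the 36, Pno1, against 3.49% of all. The median log2FC was 0.16, against 0.00 over all tested genes, and 26 were above 0. It was 0.09 without ByJcl Day 5 replicate 1. Also above 0 were 73 of the 99 other biogenesis genes (median 0.11). The same held for 79 of 82 cytosolic (median 0.23) and 50 of 75 mitochondrial (median 0.08) ribosomal protein genes. In the same comparison 20 of 20 proliferation genes (median 0.66) and 7 of 8 immune markers (median 1.13) were above 0, while 11 of 12 podocyte markers (median -0.59) and 6 of 6 tubule markers (median -1.11) were below 0. None of these markers was called. The 7 mesangial markers were all above 0 (median 0.23), and 1, Tagln, was called, with a log2FC of 1.15 (SE 0.18, edgeR adjusted p = 0.0436). The part of these markers in the values of the 36 was not tested. Without overlap, 11 were higher in ByJcl, against 16.6% of tested genes, and 1, Tsr1, was lower, against 16.4%. Pno1 had a log2FC of 0.74 (SE 0.16, edgeR adjusted p = 0.104), Ddx21 of 0.37 (SE 0.12, edgeR adjusted p = 0.251) and Nop58 of 0.48 (SE 0.18, edgeR adjusted p = 0.281). By the CPM given above, the 3 ByJcl Day 5 libraries lay above both Ajcl Day 5 libraries of the fit for each of these genes. With Ajcl Day 5 replicate 1 included, at 31.8 CPM for Pno1, the groups overlapped for that gene. The log2FC of Ddx21 was 0.23 without Ajcl Day 5 replicate 2. That of Pno1 was 0.37 with all 12 libraries, and with that replicate in place of replicate 2 or 3 it was 0.15 or 0.26.

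At baseline, ByJcl against Ajcl, edgeR called none of the 36 genes against 0.159% of all tested genes, with 2 (5.56%) against 8.34% at an unadjusted p below 0.05, and DESeq2 called none against 0.631%. The median log2FC was -0.11, against 0.01 over all tested genes, and 33 of the 36 were below 0, from -0.39 to 0.12 in all. Also below 0 were 80 of the 99 other biogenesis genes (median -0.10). The same held for 73 of 75 mitochondrial (median -0.18) and 57 of 82 cytosolic (median -0.03) ribosomal protein genes. In the same comparison 6 of 6 tubule markers were below 0 (median -0.93), and 8 of 8 immune markers (median 0.75) and 12 of 12 podocyte markers (median 0.22) were above 0, with no call. Their part in the values of the 36 was not tested. Without overlap, 5 were lower in ByJcl, against 6.43% of tested genes, and 0 were higher, against 7.86%. Wdr12 of PeBoW, on chromosome 1, was at 14.2, 13.0 and 14.1 CPM in Ajcl and at 12.2, 7.87 and 10.9 CPM in ByJcl (log2FC -0.39, SE 0.16, edgeR adjusted p = 0.583), and its log2FC was -0.23 without ByJcl baseline replicate 2. Brix1 was at 26.1, 21.4 and 23.4 CPM in ByJcl, below its 3 Ajcl values (log2FC -0.31, SE 0.11, edgeR adjusted p = 0.573). Pno1 had a log2FC of -0.30 (SE 0.14, edgeR adjusted p = 0.595), and Utp15 and Nat10 were the other genes without overlap. ByJcl baseline replicate 2 was the lowest of the 12 libraries in the mean log2 CPM of the 36 genes, at 4.62 against 4.79 to 5.10 elsewhere. Without it the median log2FC was -0.05 and 26 of the 36 were below 0. The heat map of the libraries shows this column and the ByJcl Day 5 columns, of which replicate 1 was the highest of all.

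**Figure D4:**
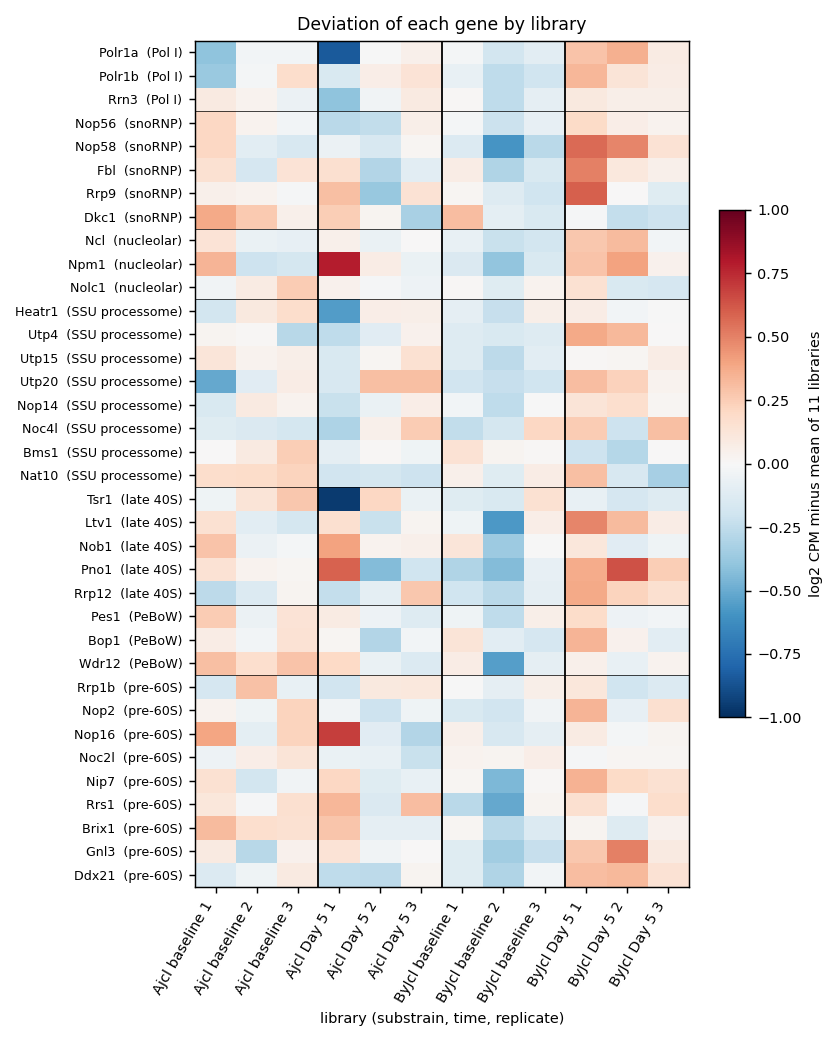
Deviation of each of the 36 genes (rows, by role) in each of the 12 libraries (columns, by substrain, time and replicate), as log2 CPM minus the mean of the 11 libraries of the fit, blue below and red above. ByJcl baseline replicate 2 is blue in most rows and ByJcl Day 5 replicate 1 red in most rows, and Ajcl Day 5 replicate 1 holds both extremes, with Npm1 and Nop16 high and Tsr1 and Polr1a low.

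The level of short against long genes differed between libraries. In each library the median deviation of the 3782 longest tested genes was set against that of the 3794 shortest, the outer quartiles of 15094 genes with a coding length. The long minus short difference was -0.72 in Ajcl Day 5 replicate 1, -0.37 in Ajcl baseline replicate 1 and -0.15 in ByJcl Day 5 replicate 1, and lay between -0.07 and 0.19 in the other 9. Among the 36 genes, Spearman's rho between deviation and coding length was -0.77 in Ajcl Day 5 replicate 1 and -0.78 in Ajcl baseline replicate 1, as a description over 36 genes of one library each. In the former, Npm1 (876 coding bases) stood at 245 CPM and Nop16 (534 bases) at 28.3 CPM, above all Ajcl baseline libraries, while Polr1a (5151 bases) at 21.5 CPM and Tsr1 (2409 bases) at 5.92 CPM lay below them. For the log2FC of the 36, rho with coding length was 0.60 at baseline and -0.34 on Day 5 between substrains, 0.43 in Ajcl after ADR, -0.15 in ByJcl after ADR and -0.53 in the interaction. Over all tested genes with a coding length it was 0.20, -0.16, 0.21, -0.12 and -0.29 in the same order, of the same sign each time. In ByJcl after ADR the median was 0.23 over the 18 shorter and 0.17 over the 18 longer of the 36, against 0.08 and -0.08 over the short and long quartiles of tested genes. In the interaction these were 0.40 and 0.16, against 0.17 and -0.16. The part of coding length in these medians was not tested.

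**Figure D5:**
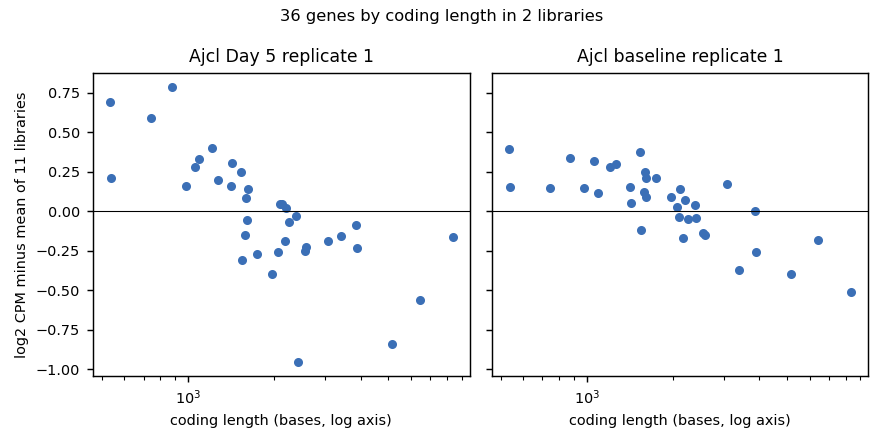
Deviation of the 36 genes (log2 CPM minus the mean of the 11 libraries of the fit) against coding length in bases on a log axis, in Ajcl Day 5 replicate 1 (left) and Ajcl baseline replicate 1 (right). The shortest genes lie mostly above 0 and the longest mostly below it, with genes of middle length on both sides, and rho was -0.77 and -0.78.

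Of a wider list of 102 ribosome biogenesis genes, 99 were in the tables and tested. In ByJcl after ADR, 2 of the 99 rose, against the 5.75% of all tested genes given above, none passed the test in the other direction, and the median log2FC was 0.14. The 2 were Riok1, a kinase of the late small subunit, from 27.1 ± 1.30 to 34.4 ± 1.30 CPM (log2FC 0.33, SE 0.09, edgeR adjusted p = 0.0402), and Mak16, a large subunit factor, from 14.3 ± 0.768 to 18.9 ± 1.01 CPM (log2FC 0.39, SE 0.11, edgeR adjusted p = 0.0465; SD, n = 3 each). An unadjusted p below 0.05 was reached by 27 of the 99 (27.3%), near the 26.8% of all tested genes. Riok1 and Mak16 were not called in every setting, and the count ran from 0 to 11. In the other comparisons edgeR called none. An unadjusted p below 0.05 was reached by 4 at baseline (4.04%, against 8.34% of all tested genes) and 10 on Day 5 (10.1% against 14%). It was reached by 3 in Ajcl after ADR (3.03% against 9.8%) and 14 in the interaction (14.1% against 8.02%). DESeq2 called 0, 1, 0 and 1, against 0.631%, 3.49%, 1.77% and 0.143% of all. The medians of the 99 were -0.10, 0.11, -0.08 and 0.21. Of 82 cytosolic ribosomal protein genes, 2 rose in ByJcl after ADR, Rps19 and Rps27l, the latter also known as a p53 target, and the median was 0.11. Of 75 mitochondrial ribosomal protein genes, 3 rose, Mrpl54, Mrpl45 and Mrpl33, and the median was 0.13. Of all tested genes 5.75% rose there. In the interaction, the medians of the cytosolic and mitochondrial ribosomal protein genes were 0.27 and 0.25, so values above 0 were not limited to the 36 genes. In Ajcl after ADR the medians of these lists were -0.12 and -0.13, with 74 of 82 and 66 of 75 genes below 0.

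Of 12 host genes of small nucleolar RNAs, which carry snoRNAs in their introns, 3 rose in ByJcl after ADR, against 5.75% of all tested genes. In Ajcl none passed the test, against 0.312% of all. The interaction called none, with 1 at an unadjusted p below 0.05 (8.33%, against 8.02% of all). In ByJcl, Snhg15 went from 1.34 ± 0.408 to 6.70 ± 2.09 CPM, Snhg1 from 12.9 ± 1.36 to 24.1 ± 6.38 CPM and Snhg5 from 7.44 ± 0.520 to 11.7 ± 1.17 CPM (SD, n = 3 each), with log2FC of 2.30, 0.89 and 0.63. In Ajcl their means went from 1.77 to 3.87, from 13.3 to 15.7 and from 8.03 to 8.71 CPM in the same order. None of the 10 genes of the RNA polymerase III list passed the test in ByJcl after ADR, and their median was 0.06. The level of Myc in ByJcl was 2.32, 2.89 and 3.63 CPM at baseline and 6.31, 14.4 and 9.60 CPM on Day 5 (log2FC 1.76, SE 0.32, edgeR adjusted p = 0.00785). In Ajcl it was at 2.36, 3.16 and 3.08 CPM and then at 3.49 and 5.80 CPM (log2FC 0.71, SE 0.35, edgeR adjusted p = 0.562). Day 5 libraries lay above all baseline libraries in both substrains, also with Ajcl Day 5 replicate 1 at 4.76 CPM, and the interaction log2FC of Myc was 1.05 (SE 0.48, edgeR adjusted p = 0.623). Of the 11 genes of the MYC network list only Myc and Mxi1, a MYC antagonist, passed the test in ByJcl, Mxi1 with a log2FC of -0.67 (SE 0.15, edgeR adjusted p = 0.0179).

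Of 10 genes of the p53 and nucleolar stress list, 7 rose in ByJcl and 3 in Ajcl after ADR (edgeR). Cdkn1a, the cell cycle inhibitor p21, went from 21.8 ± 1.72 to 725 ± 204 CPM in ByJcl (SD, n = 3 each) and from 27.4 ± 5.28 (SD, n = 3) to 415 ± 194 CPM (SD, n = 2) in Ajcl. Its log2FC were 5.04 (SE 0.31, edgeR adjusted p = 1.60e-05) and 3.94 (SE 0.30, edgeR adjusted p = 0.000257). Mdm2, the p53 ubiquitin ligase, had log2FC of 1.24 (SE 0.16, edgeR adjusted p = 0.00185) and 0.86 (SE 0.18, edgeR adjusted p = 0.0905). Trp53 itself had 0.69 (SE 0.18, edgeR adjusted p = 0.0311) in ByJcl and 0.15 (SE 0.20) in Ajcl. Mean levels of Mdm2 went from 77.2 to 184 CPM in ByJcl and from 74.8 to 135 CPM in Ajcl. Those of Trp53 went from 42.4 to 69.2 CPM in ByJcl and from 44.9 to 49.2 CPM in Ajcl. The other 4 genes called in ByJcl were Ccng1, Phlda3, Sesn2 and Rps27l, and Ccng1 and Phlda3 were also called in Ajcl. The interaction called none of the 10, with 3 at an unadjusted p below 0.05, and the largest estimate was that of Cdkn1a at 1.11 (SE 0.39, edgeR adjusted p = 0.620).

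Markers of other processes and cell types moved in the same libraries. None of 20 proliferation genes passed the test in ByJcl after ADR, with 2 at an unadjusted p below 0.05, a median log2FC of 0.49 and no call by edgeR in any comparison. Mki67 in ByJcl was at 4.91 ± 0.652 CPM at baseline and at 9.76, 7.17 and 1.43 CPM on Day 5, and Top2a at 2.56 ± 0.387 CPM and then at 10.4, 7.45 and 1.84 CPM (SD, n = 3). ByJcl Day 5 replicates 1 and 2 were thus higher than replicate 3 in both genes. The 36 genes differed in this order. It held for Nop58, Pno1, Gnl3, Ddx21, Ncl and Npm1, but not for Noc4l, Nop2, Rrs1, Brix1, Utp15, Bms1 or Rrn3. These genes were named after their values were seen. In Ajcl, Mki67 was at 4.73 ± 0.755 CPM (SD, n = 3) and then at 0.972 and 5.52 CPM, and Top2a at 3.52 ± 0.513 CPM (SD, n = 3) and then at 0.928 and 4.79 CPM. Of 12 podocyte markers, 10 fell and 1 (Cdkn1c) rose in ByJcl after ADR, and the summed level went from 21254 to 24526 CPM at baseline to 11258 to 15411 CPM. In Ajcl no podocyte marker passed the test, and the sum went from 17235 to 23204 CPM to 13935 and 18460 CPM. The summed tubule markers ran from 396 to 1473 CPM in ByJcl baseline libraries and from 339 to 1276 CPM on Day 5, and none of 6 was called. Of 8 immune markers 1 rose in ByJcl (Cd68), with sums of 70.4 to 116 and 72.7 to 138 CPM. Of 8 endothelial markers 1 rose (Plvap) and 2 fell (Ehd3, Flt1), and of 7 tested mesangial markers 1 rose (Tagln). Of 6 erythroid markers 2 were tested, and Alas2 fell in both substrains. Their part in the values of the 36 genes was not tested.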

How the data were processed

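Glomerulus-enriched RNA was sequenced as 12 strand-specific poly(A) libraries, 3 per substrain and time. Per the submitters' processing notes, the authors used FastQC, Trimmomatic, STAR and featureCounts with GRCm39, and they deposited whole-number counts per gene symbol, neither normalized nor pooled. The annotation, the strand setting and whether reads or pairs were counted are not given in the sources used here, and 77.1% to 82.9% of counts from 1 to 49 were even. Groups were taken from the labels. The study counts its untreated libraries in mice, while the labels do not tie any library to an animal, so p-values measure the spread between these libraries.

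Counts were fitted in R 4.3.3 with edgeR 4.0.16 (filterByExpr by group, TMM, quasi-likelihood test, 1 coefficient per group, 7 residual degrees of freedom) over 11 libraries, and 5 contrasts were adjusted over 17002 genes by the Benjamini-Hochberg method. Ajcl Day 5 replicate 1 was left out, as in the study. The scripts were tested on simulated counts, with 100 genes changed 1.5-fold and 100 changed 2-fold in ByJcl Day 5. For these, edgeR recovered 8 and 62, with 3 false calls, and DESeq2 37 and 82, with 23. A missing call therefore does not show that a gene was unchanged. The SE is the size of the log2FC divided by the square root of F. Coding lengths came from the canonical transcripts of GENCODE vM39. Alternatives were DESeq2 1.42.0, RLE factors, 2 filters, all 12 libraries, single libraries left out, a replicate block, halved counts and fits of the compared groups alone. Figures used Python 3.11.15 and matplotlib 3.10.9. Replicates differed beyond sampling noise, with a chi-square per degree of freedom of at least 45.4. Total counts were 42198416 to 54687045.

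The 36 genes, the gene lists and the motifs were chosen with earlier results of these data known. All 36 were accounted for by role. Full values were given for up to 10 of them with the smallest adjusted p among calls, or, with fewer than 3 calls, for the 3 with the smallest unadjusted p, and in the wider biogenesis list for up to 4 calls per direction. Myc, Trp53, Mdm2, Cdkn1a, Mki67 and Top2a were given in every group, and other genes of the marker lists were named after their values were seen.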

Additional observations from a re-analysis of the deposited data

Results flagged for a closer look

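Ajcl Day 5 replicate 1 was left out of the comparisons above except where its addition is named, and 10 of the 36 genes stood there above every Ajcl baseline library. They were Npm1 at 245 CPM (highest baseline library 179), Fbl at 34.1 (33.9), Pno1 at 31.8 (23.4), Nop16 at 28.3 (23.1), Nob1 at 26.4 (24.4), Gnl3 at 25.997 (25.1), Ltv1 at 25.6 (25.4), Rrs1 at 23.2 (20.6), Nip7 at 22.1 (21.3) and Rrp9 at 21.1 (17.7). Another 13 lay below every Ajcl baseline library and 13 within their range. The library had the lowest ratio of podocyte to tubule markers and the lowest level of long against short genes of the 12, and the part of either in these values was not tested.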

How the results depend on the processing

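The count of the 36 genes called by edgeR in ByJcl after ADR, 4 in the report, was 7 with DESeq2 and 2 with all 12 libraries, and it ran from 0 to 7 when single libraries were left out. With Ajcl Day 5 replicate 1 added it was 1 without replicate 2 and 2 without replicate 3. It was 3 with the replicate block (Ddx21 lost, adjusted p = 0.0546), 3 without a filter and 4 or 5 in the other settings. The count of other biogenesis genes, 2 in the report, was 11 with DESeq2, 4 with RLE factors, 1 with at least 10 counts in total, 0 without a filter, 0 with all 12 libraries, 0 with the replicate block and 0 to 9 when single libraries were left out. DESeq2 called 1 of the 36 (Pno1) and 1 other biogenesis gene on Day 5 between substrains, and 1 (Pno1) and 1 in the interaction. With Ajcl Day 5 replicate 1 added and replicate 3 left out, 1 of the 36 (Ddx21) was called on Day 5, so the range there was 0 to 1. At baseline and in Ajcl after ADR none was called in any setting. The median log2FC of the 36 in the interaction ran from 0.21 to 0.41 when single libraries were left out and was 0.25 with the replicate block. Over the other settings the medians moved by less than 0.0871, the SD between libraries of a group. In Ajcl the median ran from -0.13 to 0.01, turning above 0 without Day 5 replicate 2 (0.00414) and with the replicate block (0.00651), and 9 to 19 of the 36 were above 0. The log2FC of Nop16 in Ajcl was 0.0856 and 0.156 with Ajcl Day 5 replicate 1 in place of replicate 2 or 3. Over all genes, calls in ByJcl after ADR ran from 680 to 2694. Scaling moved the median of all genes by less than 0.1. The labels do not say whether same-numbered libraries are paired. Of 15 such pairs, 4 had a correlation over 0.1 (-0.24 to 0.37). Pairs of unlike number were not compared, so these values cannot decide the question. The cause of these differences was not tested.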
